A study of Mus musculus with 6 samples.

Results

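Expression of 37 genes of the ATF4 and amino acid response was measured by RNA sequencing in mouse leukaemic blasts with and without a Stat3β transgene. The set was a fixed list of ATF4 targets, aminoacyl-tRNA synthetases, amino acid transporters and serine-folate enzymes. It was matched to the deposited table by Entrez gene ID through the gene symbol. The matching rule used no measured value, but the list was chosen with earlier results of these data known. All 37 listed genes were among the 24454 gene IDs of the table. A total of 34 had at least 10 normalized counts in at least 3 of 6 libraries and were tested; Vldlr, Aldh1l2 and Slc1a4 were below that level in most libraries. STAT3β is a truncated splice product of Stat3, whose full-length form is a transcription factor that answers to cytokines.

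Both groups were fetal liver cells on a C57BL/6 background made leukaemic with a retrovirus carrying MLL-AF9, a fusion oncogene of acute myeloid leukaemia, and grown in NSG mice, immunodeficient recipients without lymphocytes of the T, B or NK lineages. The WT cells came from wild-type littermates and the Stat3β TG cells from mice with Mx1-Cre and the Stat3β transgene. As described, Mx1-Cre and the transgene differ together between the groups, so their effects cannot be told apart. Mx1-Cre is switched on by interferon and is not restricted to blood cells. Poly(I:C), which induces it, was injected 4 weeks after transplantation by a protocol stated once for both groups, and MLL-AF9+ blasts were sorted from the bone marrow at 6 weeks. There were 3 libraries per group. Whether they derive from different donors is not stated, so a p reflects the spread between these samples, which may be technical in part. Xist and the Y-linked Ddx3y, given below, differed within WT, so the WT libraries do not all come from the same donor.

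Cells that run short of amino acids, or meet other stresses, phosphorylate the translation factor eIF2α. General protein synthesis then slows, while translation of Atf4 mRNA increases. ATF4 protein pairs with C/EBP factors on C/EBP-ATF response elements and induces genes for amino acid import, amino acid and serine synthesis, tRNA charging and feedback. ATF4 is thus regulated in large part by translation, which RNA sequencing does not measure. Leukaemic blasts draw on serine and folate enzymes for nucleotide synthesis, and some leukaemias depend on imported asparagine, glutamine or cystine.

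The response element is shown first, because the members were listed as ATF4 targets and the element is a feature that can be read from their promoters. It was searched as TGATGNAA on both strands, in RefSeq windows (GRCm38.p6) of 300 bases that reach from 250 before to 50 after a gene's start. A match was found for 10 of the 30 members with a window (33.3%), against 4.51% of all genes with one. Among tested genes alone it was found for 8 of 28 members (28.6%), against 2.83% of 10108 genes. A match is a description of the letters and was not taken as a bound site. The 10 genes were Atf3, Chac1, Trib3, Vldlr, Asns, Pycr1, Slc7a11, Slc1a4, Aars and Gars. Stretches upstream of the start of 4 of them, chosen because they overlap no annotated exon, are given on the gene's own strand with each match in capitals. They lie at chr1:191183396-191183483 (- strand, Atf3), chr2:119351009-119351096 (+ strand, Chac1), chr11:120643804-120643891 (- strand, Pycr1) and chr3:50443632-50443719 (- strand, Slc7a11).
Atf3: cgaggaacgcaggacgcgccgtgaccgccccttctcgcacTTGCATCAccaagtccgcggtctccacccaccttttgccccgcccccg
Chac1: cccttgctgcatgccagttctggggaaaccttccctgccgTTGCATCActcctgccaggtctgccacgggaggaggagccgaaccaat
Pycr1: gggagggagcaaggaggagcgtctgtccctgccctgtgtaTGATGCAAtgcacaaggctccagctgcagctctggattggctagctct
Slc7a11: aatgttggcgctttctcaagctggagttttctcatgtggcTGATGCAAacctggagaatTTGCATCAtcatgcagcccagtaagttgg
The Slc7a11 stretch held 2 matches in opposite orientations, and its start lies inside the longest annotated form of the gene.

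Among the 34 tested members, 17 were higher in Stat3β TG than in WT and 17 lower (median log2 fold change 0.02). Over all 12642 tested genes, 6495 were higher and 6147 lower (median 0.01). No member passed the limma test at an adjusted p under 0.05, where 0% of all tested genes passed. One member, Aars, had an unadjusted p under 0.05, against 6.10% of tested genes. DESeq2 on reads recovered from the table called 0 members, also with 1 (Aars) at an unadjusted p under 0.05, and called 0.134% of the genes; edgeR called 0 members, with the same 1 unadjusted. The groups did not overlap in 6 members. Chac1, Cars, Nars and Sars were higher in every Stat3β TG library (5.87% of tested genes), and Aars and Slc38a1 were lower (4.92%).

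**Figure D1:**
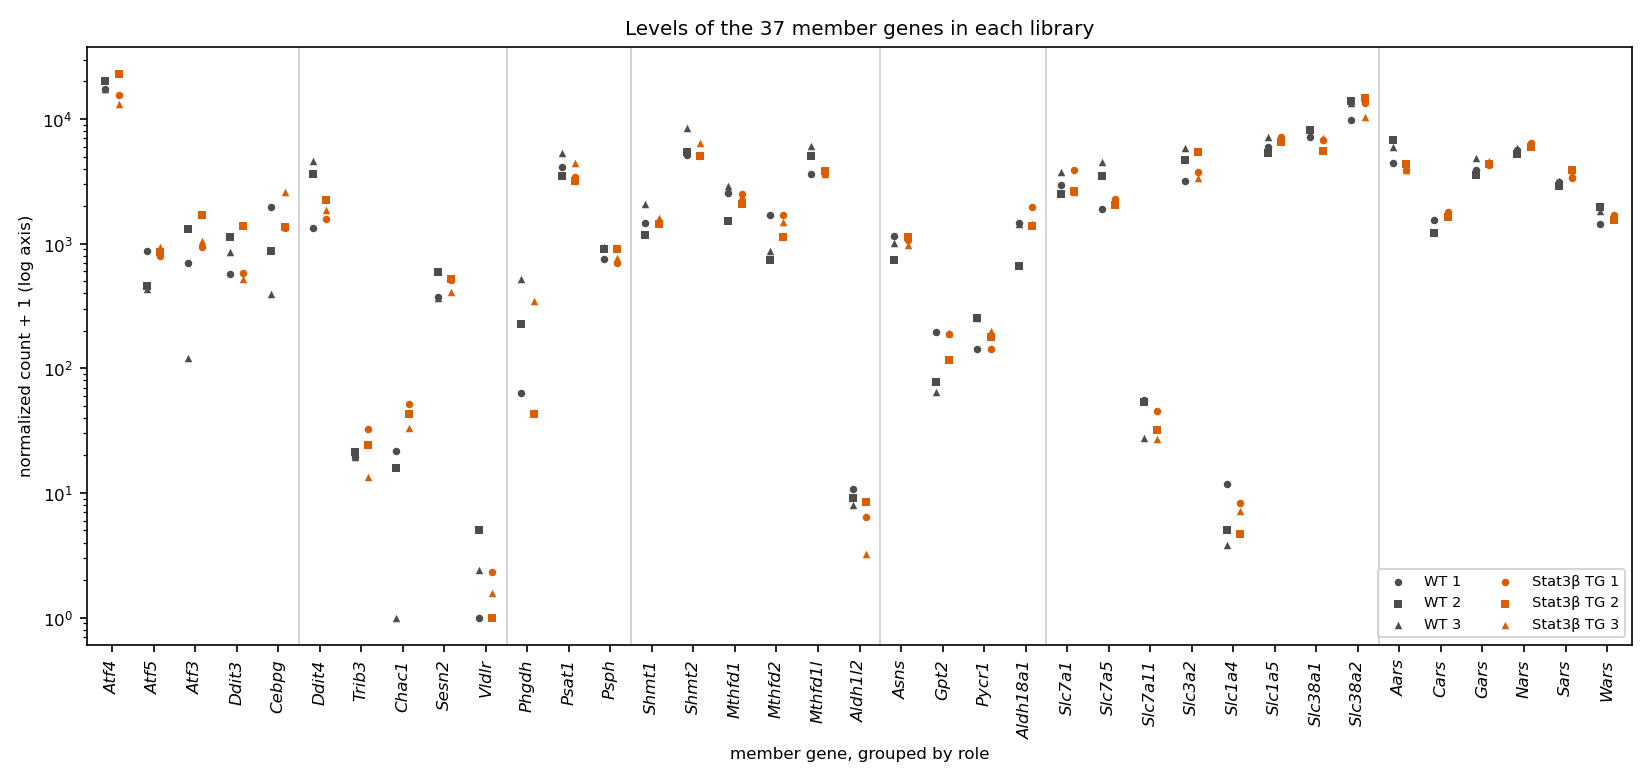
Normalized counts plus 1, on a log axis, of the 37 member genes in each of the 6 libraries; grey symbols are WT, orange symbols are Stat3β TG, and the symbol shape gives the replicate number. Atf4 and Slc38a2 lie at or above 9877 in every library, Vldlr, Aldh1l2 and Slc1a4 lie near the bottom, and the symbols of both groups overlap for most members.

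The libraries differed within the groups as well as between them. Recovered reads were 26805344, 21809788 and 21847953 in WT 1 to 3. In Stat3β TG 1 to 3 they were 46579680, 24733256 and 51934498. On the first principal component of all tested genes (47.4% of the variance) WT 2 and WT 3 stood apart at 64.4 and 49.7, while WT 1, at -38.3, lay beside the Stat3β TG libraries at -31.4 to -16.3. Xist was at 42699 and 45196 normalized counts in WT 1 and WT 3, at 835 in WT 2 and at no more than 71.6 in Stat3β TG. The Y-linked Ddx3y was at no more than 29.6 in WT 1 and WT 3 and at 2943 or more in the other 4 libraries, so this pattern differs within WT as well as between the groups. All 8 listed blast markers, among them Kit, Cd34, Hoxa9 and Meis1, passed the test's minimum, and 4 of the 8 were higher in Stat3β TG. Their sums were 64444 to 119312 in WT and 88812 to 121286 in Stat3β TG. The 5 markers of T and NK cells summed to 9.85 to 176 in WT and 92.3 to 145 in Stat3β TG; Cd3e was at 0 in all 6 libraries, and the 4 that were tested were higher in Stat3β TG. The 6 neutrophil markers were all higher in Stat3β TG, with sums of 55794 to 189706 in WT and 168375 to 245912 in Stat3β TG. The 6 markers of eosinophils, basophils and mast cells summed to 11022 to 48492 in WT and 6032 to 10524 in Stat3β TG, without overlap. Of the 5 that were tested, 1 was higher in Stat3β TG. Tested markers higher in Stat3β TG were 3 of 5 for monocytes and macrophages, 0 of 2 for erythroid cells and 2 of 3 for megakaryocytes. They were 1 of 1 for B cells and 3 of 3 for stroma and endothelium. The sums of these other lists overlapped between the groups. The part of these cell types in the values below was not tested. In bulk RNA, fewer cells of a type and less RNA per cell cannot be told apart.

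Atf4 itself was among the most abundant transcripts of the blasts and was at a similar mean level in both groups. It had 17349, 20266 and 17288 normalized counts in WT 1 to 3 and 15714, 22879 and 13169 in Stat3β TG 1 to 3. Stat3β TG 2 was highest and Stat3β TG 3 lowest, so the WT range fell inside that of Stat3β TG. The log2 fold change was -0.12 ± 0.22 SE, limma adjusted p = 0.852, with a 95% interval of -0.62 to 0.38. Per kilobase of exon, Atf4 averaged 10306 normalized counts over the 6 libraries, against 946 for Ddit3, 448 for Atf3, 362 for Atf5 and 284 for Cebpg. Its mean count exceeded that of 98.6% of tested genes. The gene lies at chr15:80255184-80257545 of GRCm38, on the plus strand.

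Ddit3 encodes CHOP, a bZIP factor that promotes death under prolonged stress. Its values were 575, 1137 and 861 normalized counts in WT and 579, 1383 and 516 in Stat3β TG. Stat3β TG 2 and WT 2 were the highest, as they were for Atf4. The groups overlapped throughout (log2 fold change -0.15 ± 0.41 SE, limma adjusted p = 0.903). Atf3, a stress-induced repressor of the same family, also peaked in Stat3β TG 2 and WT 2. It had 699.8, 1302 and 119.6 normalized counts in WT and 941, 1688 and 1045 in Stat3β TG. WT 3 stood far below the other 5 libraries, and the span between the highest and lowest library was 14.1-fold. The log2 fold change of Atf3 was 1.31 ± 0.78 SE, limma adjusted p = 0.668. It was 0.31 without WT 3. With the Xist pattern as a term of the fit, which sets WT 2 alone against Stat3β TG, it was -0.14.

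Atf5, a factor induced together with ATF4 target genes, and Cebpg, the C/EBP protein that pairs with ATF4, shared one order of libraries. From high to low it was Stat3β TG 3, WT 1, Stat3β TG 2, Stat3β TG 1, WT 2 and WT 3 for both. Atf5 had 866, 456 and 435 normalized counts in WT and 789.7, 848 and 931 in Stat3β TG, a log2 fold change of 0.62 ± 0.28 SE, limma adjusted p = 0.668. Cebpg had 1957, 879 and 397 normalized counts in WT and 1324, 1370.4 and 2602 in Stat3β TG, a log2 fold change of 0.93 ± 0.55 SE, limma adjusted p = 0.668. In both genes WT 1 lay within the Stat3β TG range, and WT 2 and WT 3 lay below it.

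Chac1 had the largest fitted difference of the 34 tested members, at low counts. It encodes an enzyme that degrades glutathione and is a target of ATF4. Its values were 20.7, 14.9 and 0 normalized counts in WT and 50.9, 41.9 and 32.02 in Stat3β TG. All 3 Stat3β TG libraries were above all WT libraries, and WT 3 had no read, where the count of 0 allows up to 4.22 normalized counts by counting error. These values rest on 19, 11 and 0 reads in WT, against 76, 34 and 57 reads in Stat3β TG. The ratio of the group means was 3.51. The fitted log2 fold change was 2.58 ± 1.12 SE, limma adjusted p = 0.668, with a 95% interval of -0.01 to 5.17. It depends on how WT 3 is treated: it was 1.77 by edgeR, and 1.17 without WT 3.

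Trib3 encodes a pseudokinase that restrains ATF4, and was near the bottom of the tested range. It had 18.5, 20.3 and 18.3 normalized counts in WT and 31.5, 23.4 and 12.4 in Stat3β TG. The WT libraries lay close together, inside the Stat3β TG range (log2 fold change 0.13 ± 0.52 SE, limma adjusted p = 0.932). Ddit4 encodes REDD1, a stress-induced inhibitor of mTORC1, and Sesn2 encodes sestrin 2, a leucine sensor that acts on the same kinase complex. Ddit4 was at 1345, 3597 and 4568 normalized counts in WT and 1562, 2248 and 1864 in Stat3β TG. WT 2 and WT 3 were above the other libraries, and WT 1 was the lowest of the 6 (log2 fold change -0.58 ± 0.42 SE, limma adjusted p = 0.675). For Sesn2 the groups overlapped between 366 and 589 normalized counts. Vldlr, a lipoprotein receptor, had at most 4.06 normalized counts in any library, no more than 3 reads' worth.

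Serine synthesis starts from the glycolytic intermediate 3-phosphoglycerate and runs through PHGDH, PSAT1 and PSPH. All 3 genes were lower on average in Stat3β TG, none past the test. Phgdh (chr3:98313171-98339969, minus strand), the entry enzyme, varied most of the 3 between libraries of the same group. It had 62.04, 227 and 515 normalized counts in WT and 42.8, 41.9 and 348 in Stat3β TG. WT 3, Stat3β TG 3 and WT 2 were high, and the other 3 libraries lay between 41.9 and 62.04, so each group held both high and low libraries. The highest and lowest library differed 12.3-fold, and the log2 fold change was -1.17 ± 1.0 SE, limma adjusted p = 0.704, with a 95% interval of -3.49 to 1.15.

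Psat1 and Psph, the enzymes that follow, did not show that spread. The aminotransferase gene Psat1 had 4109, 3497 and 5305 normalized counts in WT and 3411, 3201 and 4457 in Stat3β TG, and differed 1.66-fold between the highest and lowest library (log2 fold change -0.22 ± 0.20 SE, limma adjusted p = 0.729). The phosphatase gene Psph had 752, 899 and 932 normalized counts in WT and 703, 901 and 761 in Stat3β TG, a 1.33-fold span (log2 fold change -0.13 ± 0.18 SE, limma adjusted p = 0.812). Psat1 and Phgdh were both highest in WT 3 and then in Stat3β TG 3, and both lowest in Stat3β TG 2. Per kilobase of exon, the means over all libraries were 109 for Phgdh, 1361 for Psat1 and 476 for Psph.

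**Figure D2:**
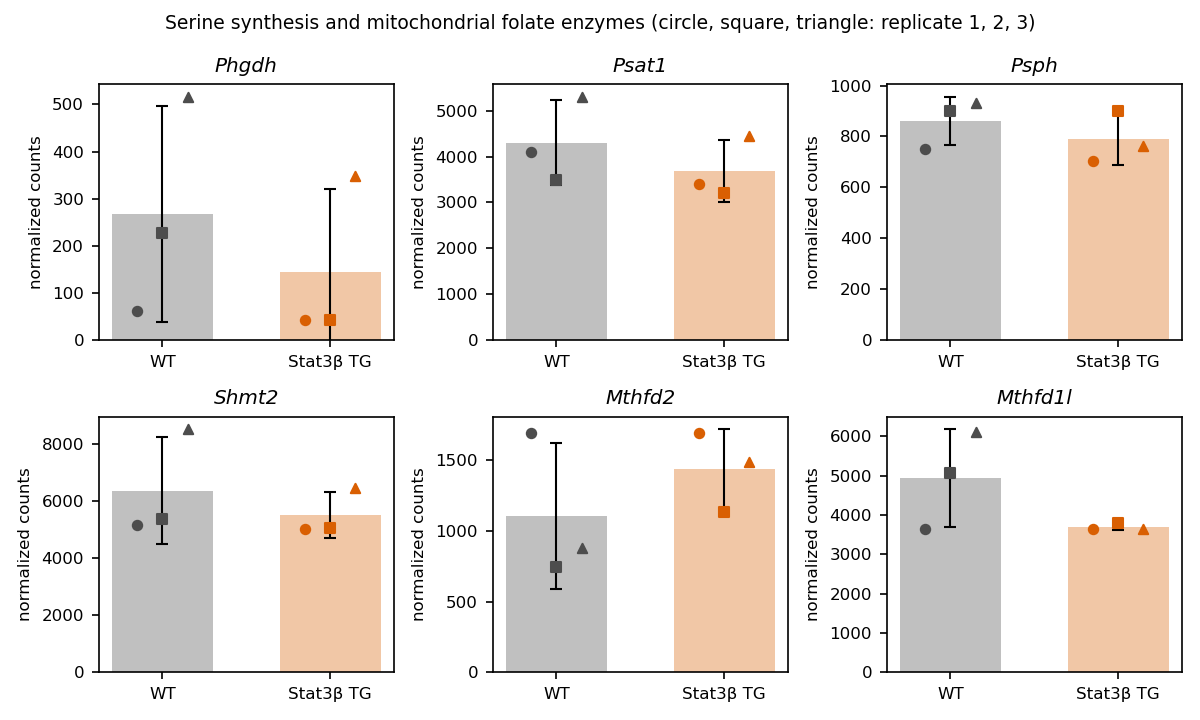
Normalized counts of the 3 serine synthesis genes and of Shmt2, Mthfd2 and Mthfd1l, enzymes of the mitochondrial folate pathway; bars are group means, error bars are 1 SD (n = 3 each), and symbols are single libraries. Phgdh is low in WT 1 and in Stat3β TG 1 and 2 and high in the other libraries, while Psat1 and Psph overlap between groups with a narrower spread.

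Folate enzymes carry the one-carbon unit released from serine. SHMT2, MTHFD2, MTHFD1L and ALDH1L2 work in mitochondria, and SHMT1 and MTHFD1 in the cytosol. Shmt2, the most abundant of the 6 per kilobase at 2579.6, had 5179, 5388 and 8530.2 normalized counts in WT and 5041, 5075 and 6463 in Stat3β TG (log2 fold change -0.18 ± 0.22 SE, limma adjusted p = 0.792). WT 3 was the highest library for Shmt2, and for Shmt1, Mthfd1 and Mthfd1l as well. Mthfd2, which is induced by ATF4 and abundant in many tumours, had 1691, 743 and 878 normalized counts in WT and 1691, 1132 and 1485 in Stat3β TG. WT 1 and Stat3β TG 1 were nearly equal and highest, and WT 2 and WT 3 were the lowest (log2 fold change 0.45 ± 0.32 SE, limma adjusted p = 0.675).

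Mthfd1l, which releases formate from mitochondria, showed the opposite picture. It was at 3635, 5076 and 6111 normalized counts in WT and 3644, 3798 and 3651 in Stat3β TG. The 3 Stat3β TG libraries and WT 1 lay between 3635 and 3798, with WT 2 and WT 3 above them (log2 fold change -0.39 ± 0.20 SE, limma adjusted p = 0.668). The cytosolic genes had log2 fold changes near 0, with -0.02 for Shmt1 (95% interval -0.53 to 0.49) and 0.06 for Mthfd1 (95% interval -0.51 to 0.63). Aldh1l2, a mitochondrial folate dehydrogenase, was at 7.04 to 9.80 normalized counts in WT and 2.25 to 7.39 in Stat3β TG, below the level that was tested.

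Asns encodes asparagine synthetase, and leukaemic cells with little of it are sensitive to asparaginase. Its values were 1157, 735 and 1005 normalized counts in WT and 1071, 1122 and 971 in Stat3β TG. WT 2 was lowest, and the other 5 libraries lay between 971 and 1157, with both groups mixed. The log2 fold change was 0.15 ± 0.20 SE, limma adjusted p = 0.806, with a 95% interval of -0.32 to 0.62, which corresponds to between 0.799-fold and 1.54-fold. Gpt2, a mitochondrial alanine aminotransferase, had 195, 77.2 and 63.3 normalized counts in WT and 186, 116 and 190.5 in Stat3β TG. Its WT 2 and WT 3 values lay below all others, and WT 1 was the highest library (log2 fold change 0.70 ± 0.48 SE, limma adjusted p = 0.675).

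Of the proline enzymes, Aldh18a1 makes the first intermediate from glutamate and Pycr1 carries out the last step in mitochondria. Aldh18a1 was lowest in WT 2, at 666 normalized counts against 1394 to 1978 in the other 5 libraries. Its log2 fold change was 0.50 ± 0.32 SE, limma adjusted p = 0.675. Pycr1 had 143, 250.4 and 252 normalized counts in WT and 142, 179 and 199 in Stat3β TG (log2 fold change -0.28 ± 0.33 SE, limma adjusted p = 0.784). WT 1 and Stat3β TG 1 were nearly equal and lowest for Pycr1, and WT 2 and WT 3 the highest.

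Amino acid transporters were the largest role in the set, with 8 members and 7 tested, of which 2 were higher and 5 lower. Slc7a5 encodes LAT1, which imports leucine and other large neutral amino acids as a dimer with the heavy chain encoded by Slc3a2. Slc7a5 had 1879, 3487 and 4507 normalized counts in WT and 2276, 2038 and 2203 in Stat3β TG. The Stat3β TG libraries lay close together, between WT 1 below them and WT 2 and WT 3 above (log2 fold change -0.51 ± 0.30 SE, limma adjusted p = 0.668). Slc3a2 had 3163, 4662 and 5816 normalized counts in WT and 3788, 5472 and 3374 in Stat3β TG, without that separation, since Stat3β TG 2 was second only to WT 3 (log2 fold change -0.10 ± 0.27 SE, limma adjusted p = 0.9).

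Slc7a11 encodes the cystine-glutamate exchanger xCT, which supplies cysteine for glutathione and also pairs with the Slc3a2 product. It was low in these blasts, with 54.4, 52.8 and 26.7 normalized counts in WT and 44.2, 30.8 and 25.8 in Stat3β TG. WT 3 and Stat3β TG 3 were about equally low, and the groups overlapped (log2 fold change -0.37 ± 0.47 SE, limma adjusted p = 0.796). Per kilobase of exon, Slc7a11 averaged 3.97, against 777 for Slc7a5 and 1449 for Slc3a2.

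Slc38a2 and Slc1a5, importers of small neutral amino acids including glutamine, were the most abundant transporters per kilobase, at 2715 and 2356. Slc38a2 had a log2 fold change of 0.05 (95% interval -0.41 to 0.51) and Slc1a5 of 0.18 (-0.17 to 0.54). Slc38a1, another glutamine importer, was lower in every Stat3β TG library. It had 7229.9, 8197 and 7578 normalized counts in WT and 6792, 5500.1 and 7095 in Stat3β TG. The gap between the lowest WT and the highest Stat3β TG library was small, with 7230 against 7095, and the log2 fold change was -0.25 ± 0.15 SE, limma adjusted p = 0.668. Slc7a1, the main importer of arginine and lysine, had a log2 fold change of -0.01 (95% interval -0.52 to 0.50), and Slc1a4, a carrier of serine and alanine, had at most 10.9 normalized counts in any library.

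Aminoacyl-tRNA synthetases charge each tRNA with its amino acid. Of the 7 roles in the set, this one, with 6 members, varied least within Stat3β TG, with a median SD of 0.08 on the log2 scale against 0.21 in WT, where all tested genes had medians of 0.21 and 0.33. The other cytosolic tRNA synthetases had medians of 0.13 in Stat3β TG and 0.30 in WT. Those of the mitochondrial ones were 0.15 and 0.36. The 6 members ranked at percentiles 60.7 to 90.8 of tested genes by mean count. Spread was not compared at matched level or depth. Aars, for alanine (chr8:111027778-111055569, plus strand), had 4451, 6740.01 and 5931 normalized counts in WT and 3884, 4359 and 3906 in Stat3β TG. All 3 Stat3β TG values lay below all WT values, though Stat3β TG 2 and WT 1 differed little. The log2 fold change was -0.48 ± 0.18 SE, limma adjusted p = 0.668, with a 95% interval of -0.89 to -0.06.

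Cars, Sars and Nars, for cysteine, serine and asparagine, went the other way. Cars had 1552, 1217 and 1247 normalized counts in WT and 1806, 1630.2 and 1669 in Stat3β TG (log2 fold change 0.35 ± 0.16 SE, limma adjusted p = 0.668). Sars had 3143, 2874 and 3169 normalized counts in WT and 3336, 3875 and 3668 in Stat3β TG (log2 fold change 0.24 ± 0.13 SE, limma adjusted p = 0.668). Each Stat3β TG library of both genes lay above each WT library. Nars had 5649.7, 5233 and 5828 normalized counts in WT and 6389, 6005 and 6145 in Stat3β TG and also did not overlap, with a difference of 1.11-fold on the fitted scale (0.15 ± 0.13 SE, limma adjusted p = 0.7 for the log2 fold change). Gars, for glycine, had a log2 fold change of 0.11 (95% interval -0.24 to 0.47), and Wars, for tryptophan, of -0.08 (-0.46 to 0.31), and in both the groups overlapped.

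**Figure D3:**
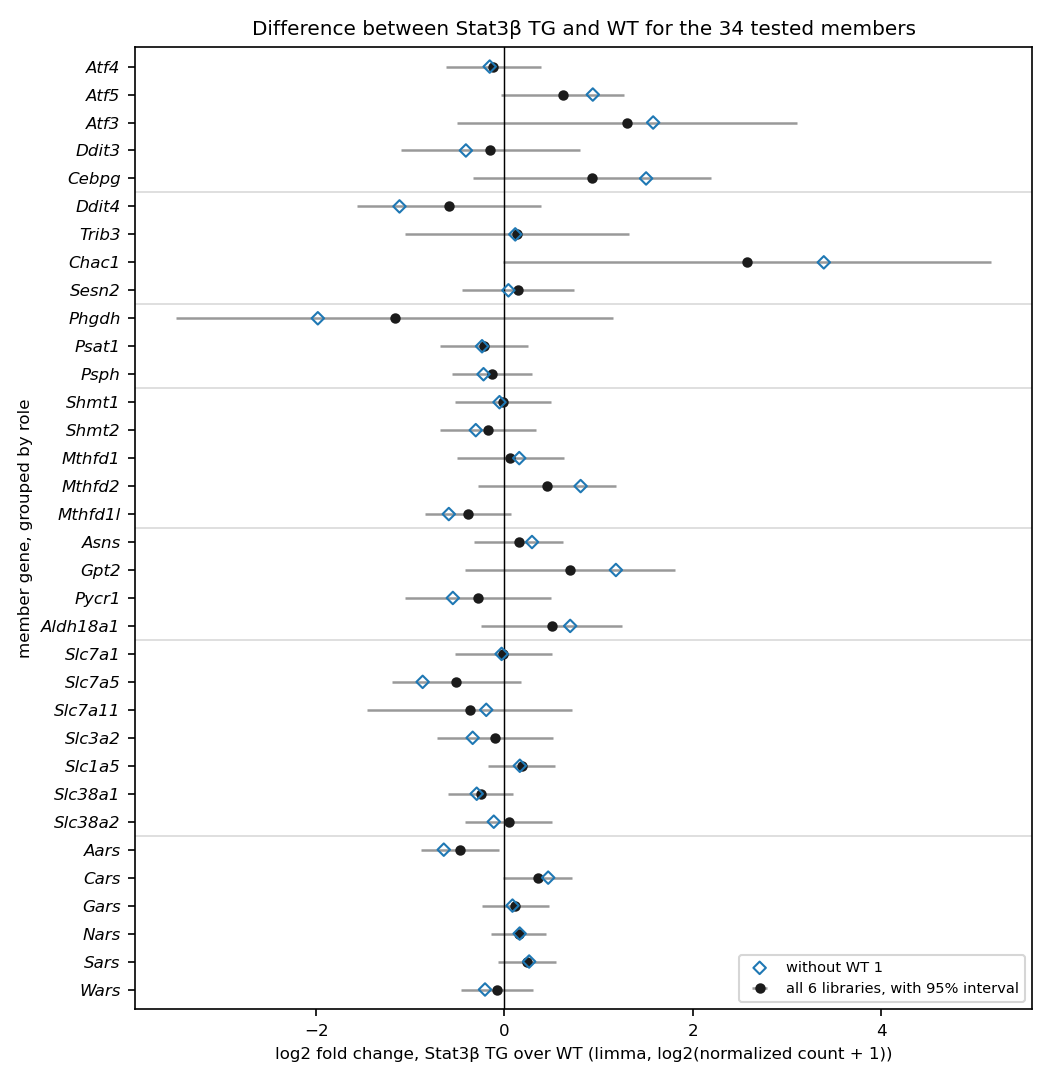
Log2 fold changes of Stat3β TG over WT for the 34 tested members, grouped by role; filled circles and grey bars are the limma estimates and 95% intervals with all 6 libraries, and open diamonds are the estimates without WT 1. The interval of Aars alone lies wholly on one side of 0, and the diamond lies farther from 0 than the circle for most members.

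Leaving out WT 1 changed the picture. Without it, 3 members passed the limma test, 8.82% of those tested, where 2.74% of all tested genes passed. Atf5 was higher (log2 fold change 0.94, adjusted p = 0.0489), and Ddit4 (-1.12, adjusted p = 0.0472) and Slc7a5 (-0.87, adjusted p = 0.048) were lower in Stat3β TG. An unadjusted p under 0.05 was then found for 10 members (29.4%), against 27.0% of all tested genes. Without both WT 2 and WT 3, an alternative chosen after seeing the data that leaves WT 1 alone in its group, the log2 fold changes of these genes were -0.02, 0.48 and 0.21. These 3 genes were picked by the fit without WT 1, so the contrast between the fits is a description of where WT 1 lies.

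**Figure D4:**
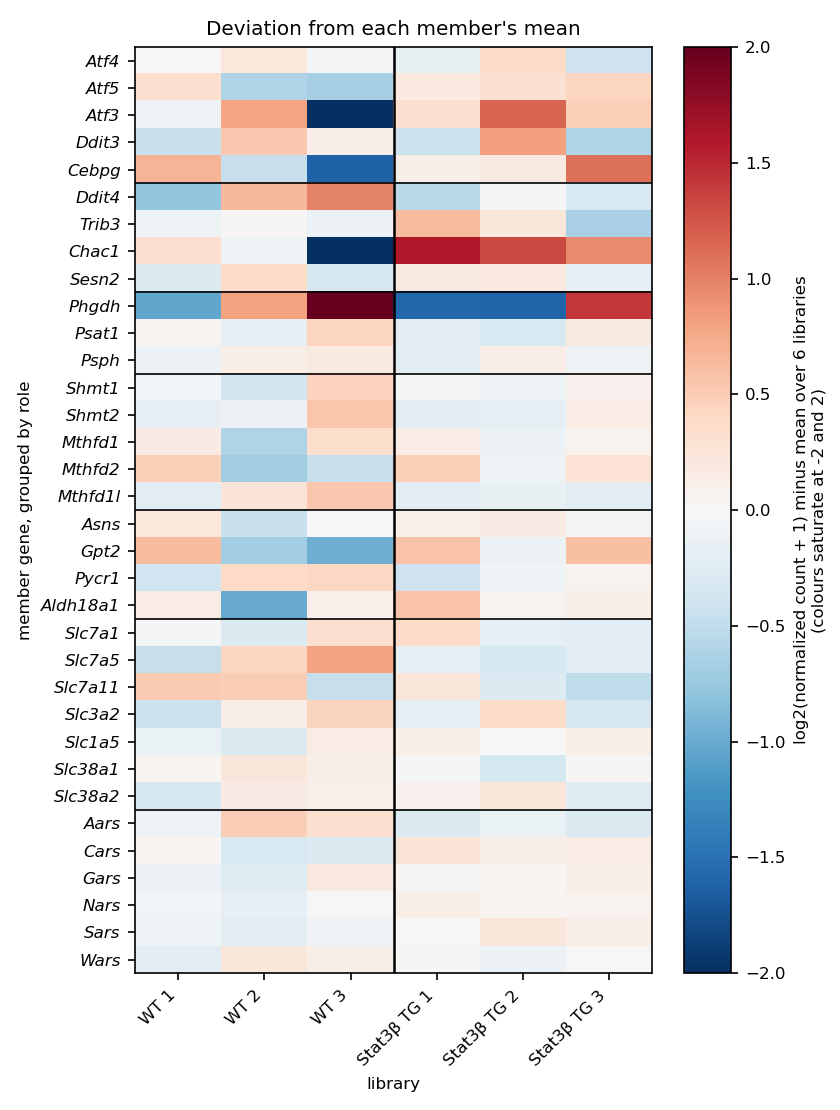
Deviation of each tested member from its mean over the 6 libraries, on the log2(normalized count + 1) scale, with colours that saturate at -2 and 2; rows are grouped by role and the vertical line separates WT from Stat3β TG. Atf3, Chac1 and Cebpg are lowest in WT 3, Phgdh is high in WT 2, WT 3 and Stat3β TG 3, and the tRNA synthetases deviate least.

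The spread within WT was wider than within Stat3β TG for 26 of the 34 members (76.5%), and for 69.6% of all tested genes. The median SD of the members was 0.39 in WT and 0.23 in Stat3β TG on the log2 scale. WT 3 held the highest value of 13 members (38.2%, against 18.4% of all tested genes), including Psat1, Psph, Phgdh, Shmt1, Shmt2, Slc7a5 and Slc3a2. WT 2 held the lowest value of 11 members (32.4%, against 26.0%), among them Asns, Aldh18a1 and Mthfd2.

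Members with a match to the response element in the promoter window went in both directions. Elements outside the window were not searched, so a member without a match may still have one. Of the 8 that were tested, 5 were higher and 3 lower, with a median of 0.12 (log2) and values from -0.48 (Aars) to 2.58 (Chac1). The 20 tested members with a window and no match had 9 higher and 11 lower, with a median of -0.01. Chac1 and Aars, both with a match, each did not overlap between the groups, in opposite directions.

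The wider pathway was counted from lists of related genes. Of 149 further genes in 10 lists, 138 were tested, of which 68 were higher and 70 lower (median -0.01 on the log2 scale). None passed the limma test, and 8 had an unadjusted p under 0.05, with 4 in each direction, where 6.10% of all tested genes had one. The groups did not overlap for 8 genes higher in Stat3β TG (5.87% of all tested genes) and for 4 lower (4.92%). Among 8 genes for the kinases and phosphatases of eIF2α and their cofactors, 4 were higher and 4 lower. Eif2ak2, the RNA-activated kinase PKR, was at 1533, 1882 and 1645 normalized counts in WT and 1347, 1356 and 1090.5 in Stat3β TG, without overlap (log2 fold change -0.42 ± 0.16 SE, limma adjusted p = 0.668). Eif2ak4 encodes GCN2, the kinase that senses uncharged tRNA. It was at 1586, 2756 and 2369.7 normalized counts in WT and 1913, 1519 and 1270.3 in Stat3β TG (log2 fold change -0.50 ± 0.25 SE, limma adjusted p = 0.668). In a list of 8 genes for subunits of eIF2 and eIF2B, with the translation repressor gene Eif4ebp1 added, 7 were lower and 2 higher.

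The 14 other cytosolic tRNA synthetases had 9 higher and 5 lower, and the valine enzyme gene Vars had the smallest p (log2 fold change -0.37 ± 0.18 SE, limma adjusted p = 0.668). Of 17 mitochondrial tRNA synthetases, 8 were higher and 9 lower. Among 18 tested genes of serine, glycine and folate metabolism, 8 were higher and 10 lower. Fpgs, which adds glutamates to folates and so retains them in the cell, did not overlap, with 781, 1039.6 and 1390.3 normalized counts in WT and 707, 692 and 755 in Stat3β TG (log2 fold change -0.54 ± 0.23 SE, limma adjusted p = 0.668). Of the other amino acid enzymes, 10 of 16 were higher. Odc1, which starts polyamine synthesis from ornithine, was at 2545.7, 5071 and 6209.8 normalized counts in WT and 1661, 2546.3 and 1291 in Stat3β TG, with WT 1 level with Stat3β TG 2 (log2 fold change -1.29 ± 0.37 SE, limma adjusted p = 0.668). Of the other amino acid transporters, 5 of 13 were higher. Slc7a6, a carrier that exchanges cationic and neutral amino acids, was higher in every Stat3β TG library (log2 fold change 0.42 ± 0.16 SE, limma adjusted p = 0.668).

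MYC, which induces many serine and transporter genes, was considered beside them. Myc was at 4327, 6434 and 9155 normalized counts in WT and 5912, 4078 and 5924 in Stat3β TG (log2 fold change -0.28, limma adjusted p = 0.744). WT 3 was highest for Myc and for 13 of the 34 tested members, among them Psat1, Phgdh, Shmt2, Slc7a5 and Slc3a2. Other folate and transporter members peaked elsewhere. Mthfd2 and Slc7a11 were highest in WT 1, Slc38a1 in WT 2, Slc7a1 in Stat3β TG 1 and Slc38a2 in Stat3β TG 2. Of 12 tested genes in the list of MYC and its targets, 11 were lower in Stat3β TG, with a median of -0.19 and none past the test. The part of MYC in the members' levels was not tested. Stat3 itself had a log2 fold change of -0.23 (limma adjusted p = 0.771), a sum over its splice forms that does not measure Stat3β.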

How the data were processed

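RNA from sorted blasts was sequenced in 3 WT and 3 Stat3β TG libraries. The authors deposited 1 table of normalized counts (a signal: read counts divided by a size factor per library) for 24454 Entrez gene IDs. The submitters' processing notes name FastQC, STAR, DESeq2 and GRCm38 (mm10); the read counter, strand setting and annotation were not given in the sources used here. Symbols from RefSeq (GRCm38.p6) matched 24376 IDs. All 146724 values were whole multiples of the value of 1 read within 0.001, so reads were recovered. A total of 3 reads corresponds to 1.69 to 4.22 normalized counts, which covers counting error only.

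Genes with at least 10 normalized counts in at least 3 libraries (12642) were tested on log2(normalized count + 1) with limma 3.58.1 (trended, robust, R 4.3.3), Stat3β TG against WT, with Benjamini-Hochberg adjustment over all of them and a threshold of 0.05. Tests were of either direction (both tails), and fold changes are on that scale, which understates ratios of low values. Where a library is at 0, as for Chac1, averaging logs can also enlarge a difference. Alternatives were edgeR 4.0.16 and DESeq2 1.42.0 on recovered reads, other pseudocounts, filters and scaling, a replicate block, a sex-linked term and leaving out libraries. Levels per kilobase used GENCODE exon lengths on GRCm38, which may differ from the annotation behind the counts.

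The members and lists were chosen with earlier results of these data known. Every member is named, with values per library for those at an unadjusted p under 0.05, for a core of ATF4, serine and transporter genes, and for others chosen after their values were seen. From each pathway list at most the 3 genes with the smallest p were named. Exceptions were Ern1, added after its values were seen, and Myc, named whatever its p.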

Additional observations from a re-analysis of the deposited data

How the results depend on the processing

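Genes called over the whole table numbered 0 by limma (771 at an unadjusted p under 0.05) and 0 by edgeR (777), against 17 by DESeq2 (970) and 2 with the sex-linked term. Leaving out 1 library gave 0 to 346, with 346 without WT 1 and 5 without WT 2, and leaving out both WT 2 and WT 3 gave 9. Members called ranged from 0 to 3 over the libraries left out, the 3 being without WT 1. Members at an unadjusted p under 0.05 were 1 as reported, and 2 with a pseudocount of 5, without the filter and with quantile normalization (6.09% to 6.18% of genes). They were 3 with the sex-linked term (8.82%, against 18.7% of genes) and 0 without both WT 2 and WT 3 (3.82% of genes). With 1 library left out they were 0 to 10, the 10 without WT 1 (27.0% of genes) and at most 2 without any other library (3.00% to 3.99% of genes). The median log2 fold change of the members was -0.042 to 0.11 with 1 library left out and 0.12 without both. With the replicate block, 3 members had an unadjusted p under 0.05 (8.82%, against 7.39% of genes) and 0 were called, with 0 over all genes. Same-numbered libraries had deviations correlated at r = 0.141, 0.0995 and -0.107, so the numbers were not taken as pairing them. The sign of the difference was the same in all alternatives that gave a value for 10 members. With the sex-linked term, in which WT 2 alone stands against Stat3β TG, log2 fold changes turned to -0.14 for Atf3 and Slc38a2, 0.062 for Psat1, -0.30 for Sesn2, 0.36 for Shmt1, 0.027 for Shmt2 and 0.26 for Slc7a1. Without both WT 2 and WT 3, chosen after seeing the data and with WT 1 assumed to vary like the others, they turned to -0.14 for Asns, -0.020 for Atf5, -0.22 for Cebpg, 0.37 for Ddit3, 0.48 for Ddit4, -0.28 for Gpt2, -0.13 for Mthfd1, 0.024 for Mthfd1l, -0.26 for Mthfd2, 0.46 for Phgdh, 0.060 for Psph, 0.26 for Pycr1, 0.053 for Shmt1, 0.084 for Shmt2, 0.38 for Slc3a2, 0.030 for Slc7a1, 0.21 for Slc7a5 and 0.19 for Wars. With 1 library left out, the sign turned in at least 1 setting for Asns (-0.034 to 0.29), Atf4 (-0.34 to 0.055), Ddit3 (-0.59 to 0.12), Mthfd1 (-0.22 to 0.25), Shmt1 (-0.21 to 0.21), Shmt2 (-0.30 to 0.055), Slc38a2 (-0.11 to 0.19), Slc3a2 (-0.34 to 0.10), Slc7a1 (-0.20 to 0.15), Trib3 (-0.15 to 0.49) and Wars (-0.21 to 0.018). The cause was not tested. Depth limits Chac1, Trib3 and Slc7a11 most, and Vldlr, Aldh1l2 and Slc1a4 could not be tested.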

Other observations

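Chaperone and folding genes of the endoplasmic reticulum, which answer to XBP1 and ATF6 under the same stress that activates the eIF2α kinase PERK, were counted as a neighbouring list. Of 16 genes, 13 were higher in Stat3β TG and 3 lower, and their median log2 fold change was 0.28 against 0.01 over all tested genes. None passed the limma test at an adjusted p under 0.05, and 4 had an unadjusted p under 0.05, with 3 higher and 1 lower, where 6.10% of all tested genes had one (450 higher and 321 lower). Edem1, which helps to clear misfolded glycoproteins, was at 9419.7, 7219 and 7209 normalized counts in WT and 13881, 10195 and 13115 in Stat3β TG (log2 fold change 0.64 ± 0.18 SE, limma adjusted p = 0.668). Manf, a secreted stress protein, was at 2769, 2077 and 2439 normalized counts in WT and 3075, 3549.7 and 4166 in Stat3β TG (log2 fold change 0.57 ± 0.17 SE, limma adjusted p = 0.668). Xbp1 itself was at 5977, 7242 and 6327 normalized counts in WT and 7877, 8299 and 8941 in Stat3β TG (log2 fold change 0.36 ± 0.14 SE, limma adjusted p = 0.668). These 3 genes were named for their small p, and in each of them every Stat3β TG library lay above every WT library. Of the 16 genes, 4 were higher without overlap (5.87% of all tested genes) and 1 was lower (4.92%). Ern1, whose product IRE1 splices Xbp1 mRNA, lay lower in every Stat3β TG library, at 1799, 3096 and 2052 normalized counts in WT and 1741, 1265 and 1514 in Stat3β TG (log2 fold change -0.59 ± 0.23 SE, limma adjusted p = 0.668); it was named after its values were seen. Splicing of Xbp1 was not measured by these counts.

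Of 15 tested bZIP factors that can pair with ATF4 or bind related elements, 8 were higher in Stat3β TG and 7 lower (median log2 fold change 0.17). Nfe2l1 had the smallest p (log2 fold change -0.26 ± 0.14 SE, limma adjusted p = 0.668).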
